A study of Homo sapiens with 12 samples.

Results

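The mRNA levels of the epidermal growth factor receptor (EGFR), 6 of its ligands and the protease that releases most of these ligands were followed in HCC1806 cells, an established line of triple-negative breast cancer (TNBC). The ligand genes were HBEGF, AREG, EREG, TGFA, EPGN and BTC, the receptor gene was EGFR and the protease gene was ADAM17. They are 8 of the 17013 genes in the deposited table, all 8 listed genes were in it, and they were found by matching Ensembl identifiers to symbols. The list was chosen from levels measured in these same 12 libraries, with differences between all 4 groups known, so the members' values are a description. No single member's p-value is printed, and counts of members past a threshold, with the settings under which they held, describe where each value stood and are not independent evidence. Cells received either a non-targeting siRNA (siNT) or a pool of 4 siRNAs against MLK4 (siMLK4), a mixed-lineage kinase encoded by MAP3K21, and then either vehicle or 1 μM doxorubicin, a topoisomerase II poison, for 24 h. The 4 groups were siNT with vehicle, siNT with doxorubicin, siMLK4 with vehicle and siMLK4 with doxorubicin, with 3 libraries each. The descriptions of siMLK4 doxorubicin replicates 2 and 3 give the same library number, but their values differed by more than counting error (chi-square over genes divided by its degrees of freedom, 25.952), so they were kept as separate libraries. The labels name the vehicle DMSO and the study's methods call the same cells untreated. The sample titles mark the vehicle libraries as time 0 and the doxorubicin libraries as 24 h, while the series text gives 24 h for both, so if the titles hold, the drug and 24 h of further culture cannot be told apart in any comparison of doxorubicin with vehicle. All libraries came from 1 cell line, with triplicate transfections, and no label places the triplicates in separate experiments, so the standard errors and p-values measure the spread between these libraries, which may be technical.

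EGFR ligands are made as membrane-anchored precursors, and a metalloprotease cuts them near the cell surface to release the soluble factor. The bound receptor dimerizes with itself or another ERBB receptor and signals through RAS, RAF, MEK and ERK, which in turn induce phosphatases and inhibitors that dampen the same cascade. In basal-like breast epithelial cells several ligands are commonly made by the same cells that carry the receptor, and some of the ligand genes are themselves transcribed downstream of ERK.

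Each library held between 16759025 and 19302248 reads on the genes of the table. Levels are given as normalized reads, which are reads divided by the library's size factor, and differences are log2 fold changes with their standard error (SE) on the deposited variance-stabilized scale, which compresses changes of genes with few reads. Libraries of the same group differed from each other by more than counting error, the chi-square over genes divided by its degrees of freedom running from 7.185 to 67.245. The widest gaps were between vehicle libraries, at 67.245 for siMLK4 replicates 1 and 3 and 60.782 for siNT replicates 1 and 3, against at most 25.952 between doxorubicin libraries. The basal epithelial markers were present in every library, the lowest value being 841.9 normalized reads of KRT14. With vehicle the most abundant was the basal keratin gene KRT5, which averaged 20880 normalized reads in siNT and 32260 in siMLK4 libraries. It averaged 8817 and 7035 in the corresponding doxorubicin libraries. The other basal keratin genes were on average lower in siMLK4 than in siNT vehicle libraries, at 2870 against 6001 for KRT14, 6001 against 13800 for KRT6A and 2602 against 4118 for KRT17. In siNT cells the doxorubicin means were 2461 for KRT14, 5308 for KRT6A and 4069 for KRT17, and that of the basal transcription factor gene TP63 was 1552 against 4837 with vehicle. In siMLK4 cells they were 996.2, 2573 and 2291, and that of TP63 was 1132 against 3510 with vehicle. The epithelial adhesion gene EPCAM averaged 13820 in siNT and 8897 in siMLK4 vehicle libraries and 13290 and 8578 with doxorubicin, whereas CDH1, which encodes E-cadherin, averaged 4274 and 5568 with vehicle and 3511 and 4344 with doxorubicin. The part of these markers in the results was not tested. The progesterone receptor gene PGR was at 0 reads in all 6 vehicle libraries and at a mean of 13.27 and 11.66 normalized reads in the siNT and siMLK4 doxorubicin libraries, while the estrogen receptor gene ESR1 had means between 46.54 and 117.1. Among markers of other cells, PTPRC of leukocytes had means between 1.745 and 20.28 and PDGFRB of pericytes between 2.861 and 23.59. The fibroblast genes COL1A1 and LUM had means between 267.1 and 528.8 and between 16.51 and 190.4, both highest in siMLK4 vehicle libraries, and their part in the results was not tested. The endothelial gene PECAM1 was not analysed here. In bulk RNA, fewer cells of a kind and less RNA per cell cannot be told apart.

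The siRNA labels were checked on their target first. With vehicle, MAP3K21 was at 553.1, 669.6 and 673.6 normalized reads in siNT and at 103.2, 94.66 and 88.65 in siMLK4 libraries. With doxorubicin it had 757.6, 856.1 and 771.6 in siNT and 112.8, 138.4 and 94.35 in siMLK4 libraries. MLK4 knock-down left 15.1% of the siNT mean in vehicle (log2 fold change −2.24, SE 0.12, limma adjusted p = 9.7e-08) and 14.5% with doxorubicin (−2.37, SE 0.12, limma adjusted p = 1.1e-07), and the groups did not overlap. The 4 siRNAs are shown because they define the knock-down groups, and their seed words were searched in the members' transcripts. The strand with the sequence of the mRNA is given, and capitals mark the 7 bases that pair with bases 2 to 8 of the guide strand.
siRNA #1 against exon 9, chr1:233379030-233379048: ggaaagaugcuCAGAGAGauu
siRNA #2 against exon 5, chr1:233362204-233362222: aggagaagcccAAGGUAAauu
siRNA #3 against exon 9, chr1:233379276-233379294: agaagaaacgaGAGGGAAuuu
siRNA #4 against exon 7, chr1:233376047-233376065: agaacagauugCAAAGAAauu
Each matched the coding sequence of MAP3K21 once, on the plus strand of chromosome 1 in GRCh38. In the annotated 3′UTR of any protein-coding transcript of the gene, 6 of the 8 members held the seed word of 1 siRNA. The same search found at least 1 of the 4 words in 50.3% of 13571 genes. The word of #1 was in EREG and TGFA, that of #2 in AREG and ADAM17, and that of #4 in BTC and EGFR, while HBEGF and EPGN held none. A word in a 3′UTR is a description of these letters, and whether any siRNA acted through it was not tested.

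In vehicle, MLK4 knock-down went with lower mRNA of 4 of the 6 ligands and left the receptor within the spread between libraries. AREG, HBEGF, EREG and TGFA had 15.0%, 16.5%, 20.3% and 32.3% of their siNT means, and their groups did not overlap. With doxorubicin, EGFR itself was at 38.1% of its vehicle mean in siNT cells and 39.1% in siMLK4 cells. The means of the 4 ligands were lower with doxorubicin than with vehicle in siNT cells, with overlapping groups for HBEGF and EREG. In siMLK4 cells the means of HBEGF, EREG and TGFA were higher with doxorubicin and that of AREG was lower. EREG and TGFA were past the thresholds given next in neither response. The thresholds in limma were 0.01 for the adjusted p and 0.75, in either direction, for the log2 fold change. In siNT cells 3 of the 8 members were past them with doxorubicin, all lower (AREG, HBEGF and EGFR), where 10.6% of all genes were past them lower and 12.1% higher. In siMLK4 cells HBEGF was past them higher and EGFR and EPGN lower, where 12.6% of all genes were past them higher and 10.6% lower. For siMLK4 against siNT, AREG, HBEGF, EREG and TGFA were past them lower in vehicle, where 3.14% of all genes were past them lower and 2.51% higher. With doxorubicin AREG, EREG and TGFA were past them lower, where 2.93% were past them lower and 2.66% higher. For the difference between the doxorubicin responses in siMLK4 and siNT cells, which was past the thresholds in 0.0999% of all genes higher and 0.176% lower, limma put 0 of the 8 members past them. The same count was 0 with limma-voom, and 4 members had an unadjusted p under 0.05, as did 14.5% of all genes. Groups of 3 libraries that did not overlap were common in the table. With doxorubicin 32.0% of genes were higher and 30.4% lower without overlap in siNT cells, where 1 and 4 members were, and 33.4% and 30.5% in siMLK4 cells, where 4 and 3 members were. For siMLK4 against siNT 19.7% were higher and 18.0% lower in vehicle, where 0 and 4 members were, and 22.8% and 21.1% with doxorubicin, where 1 and 5 members were. Since the members were chosen on these contrasts, nothing is read from these counts.

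**Figure D1:**
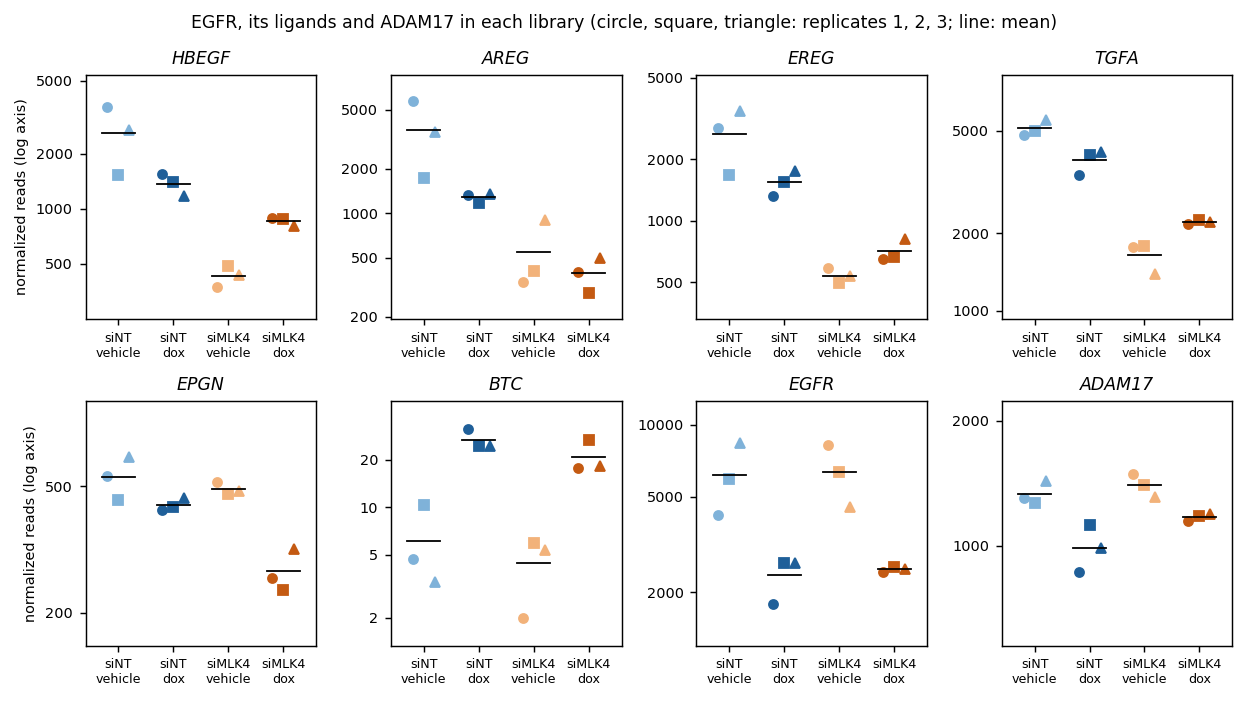
Normalized reads of the 8 genes in each of the 12 libraries, on log axes whose range differs by gene, with the 4 groups along the horizontal axis. Symbols give the replicate number and lines the group means. HBEGF ran from 371.7 in a siMLK4 vehicle library to 3606 in a siNT vehicle library, and the 6 doxorubicin libraries of EGFR, at most 2639, all lay below the vehicle libraries, at least 4218.

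HBEGF encodes heparin-binding EGF-like growth factor, a ligand of EGFR and ERBB4. Its gene (ENSG00000113070) lies at chr5:140332843-140346603 on the minus strand of GRCh38. Vehicle libraries held 3606, 1521 and 2689 normalized reads in siNT and 371.7, 485.2 and 431.4 in siMLK4 cells. Doxorubicin libraries held 1543, 1395 and 1167 in siNT and 884.4, 873.9 and 807.5 in siMLK4 cells. The siNT vehicle libraries stood highest but spread widely, and 1 doxorubicin library of siNT cells, at 1543, lay above the lowest vehicle library, at 1521, so these groups overlapped. Each siNT doxorubicin library was below the siNT vehicle library of the same replicate number, which the labels do not describe as a pairing. The log2 fold change with doxorubicin was −0.83 (SE 0.22) in siNT cells and 0.92 (SE 0.22) in siMLK4 cells, a difference of 1.75 (SE 0.32). In siMLK4 cells the doxorubicin mean was 1.99 times the vehicle mean without overlap. MLK4 knock-down accordingly went with a log2 difference of −2.39 (SE 0.22) in vehicle and −0.64 (SE 0.22) with doxorubicin. The siNT call rested on single libraries, since the log2 fold change ran from −1.16 to −0.56 over the 12 fits that each left out 1 library and was past the thresholds in 8 of them, not without siNT vehicle replicates 1 or 3 or siNT doxorubicin replicates 2 or 3. It was also lost with scaling to library totals (−0.59) and when only the groups compared were fitted. In siMLK4 cells the response ran from 0.83 to 1.0 when 1 library was left out. Its call held in 9 of the 12 fits, not without siMLK4 vehicle replicate 1 or siMLK4 doxorubicin replicates 1 or 2. The knock-down call in vehicle held in 12.

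The 250 bases before the annotated start of HBEGF, AREG and EREG are shown because these ligands had the largest differences upon MLK4 knock-down in vehicle. They are from RefSeq, GRCh38.p14, 5′ to 3′ on the strand of the gene. Capitals mark matches, on both strands, to 4 motifs: AP-1 (TGANTCA), the core of the cAMP response element CRE (TGACGT), an ETS core (CCGGAA) and a GC box (GGGCGG).
HBEGF, chr5:140346604-140346853, minus strand: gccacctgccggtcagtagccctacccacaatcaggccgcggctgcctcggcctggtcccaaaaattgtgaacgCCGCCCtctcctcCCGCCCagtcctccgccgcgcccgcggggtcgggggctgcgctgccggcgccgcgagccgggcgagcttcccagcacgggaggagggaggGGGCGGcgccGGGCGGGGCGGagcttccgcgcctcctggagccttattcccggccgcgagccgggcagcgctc
AREG, chr4:74444886-74445135, plus strand: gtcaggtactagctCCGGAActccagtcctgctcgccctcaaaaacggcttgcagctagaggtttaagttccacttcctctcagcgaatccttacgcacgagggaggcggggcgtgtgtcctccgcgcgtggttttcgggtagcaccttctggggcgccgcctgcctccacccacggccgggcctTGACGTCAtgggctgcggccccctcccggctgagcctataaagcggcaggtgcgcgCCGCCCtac
EREG, chr4:74364895-74365144, plus strand: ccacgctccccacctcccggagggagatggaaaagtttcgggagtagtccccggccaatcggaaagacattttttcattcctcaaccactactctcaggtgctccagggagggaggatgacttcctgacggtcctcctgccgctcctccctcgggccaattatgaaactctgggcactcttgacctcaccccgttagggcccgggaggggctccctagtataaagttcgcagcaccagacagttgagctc
HBEGF held 5 GC box words, the last pair sharing a base, and none of the other motifs, against at least 1 GC box word in 42.6% of 35116 promoter windows. AREG held a CRE core on both strands, the palindrome TGACGTCA starting 65 bases before the start, together with 1 ETS core and 1 GC box. The CRE core was in 7.1% and the ETS core in 14.5% of windows. EREG held no match to these letters, and AP-1, in 6.57% of windows, was in none of these 3. These are matches of letters in a window, with no reading of what binds there.

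AREG encodes amphiregulin, a ligand of EGFR with lower affinity than EGF, and its gene (ENSG00000109321) lies at chr4:74445136-74455005 on the plus strand. Among the members it had the largest standard error. In siNT cells it was at 5763, 1728 and 3522 normalized reads with vehicle and at 1322, 1164 and 1348 with doxorubicin. The siMLK4 libraries held 340.7, 406.5 and 906.0 with vehicle and 403.6, 287.7 and 496.3 with doxorubicin. Every siMLK4 library was below every siNT library of either treatment, while the siMLK4 vehicle and doxorubicin libraries overlapped. The log2 fold change with doxorubicin was −1.33 (SE 0.36) in siNT and −0.34 (SE 0.36) in siMLK4 cells, and the difference between these, 0.99 (SE 0.52), was less than 2 of its standard errors. When 1 library was left out, the siMLK4 response ran from −0.59 to 0.05 and the difference from 0.58 to 1.44. MLK4 knock-down went with −2.58 (SE 0.36) in vehicle and −1.60 (SE 0.36) with doxorubicin. The vehicle value ranged from −3.03 to −2.18 when 1 library was left out and was past the thresholds in 12 of 12 fits, but not when only the vehicle groups were fitted. When 1 library was left out, the doxorubicin response of siNT cells ran from −1.78 to −0.93. It was past the thresholds in 7 of 12 fits, not without siNT vehicle replicates 1 or 3 or any 1 siNT doxorubicin library, nor with scaling to library totals (−1.09). Upon knock-down with doxorubicin the value ran from −1.76 to −1.41. It was also past the thresholds in 7 of 12, not without any 1 siNT doxorubicin library or siMLK4 doxorubicin replicates 1 or 2.

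EREG encodes epiregulin, a ligand of EGFR and ERBB4, and its gene (ENSG00000124882) lies at chr4:74365145-74388749 on the plus strand, 56.4 kb from AREG. With vehicle it was at 2838, 1679 and 3454 normalized reads in siNT and at 588.1, 495.2 and 535.2 in siMLK4 libraries. With doxorubicin it had 1329, 1551 and 1752 in siNT and 652.1, 666.2 and 813.8 in siMLK4 libraries. As for HBEGF and AREG, siNT vehicle replicate 2 was the lowest of its group, and it lay within the range of the siNT doxorubicin libraries. Each siNT vehicle library was above the siNT doxorubicin library of the same replicate number, again without a pairing in the labels. The log2 fold change with doxorubicin was −0.71 (SE 0.20) in siNT cells and 0.36 (SE 0.20) in siMLK4 cells, where the groups did not overlap, a difference of 1.07 (SE 0.28). The siNT value ran from −1.0 to −0.49 when 1 library was left out and crossed the thresholds in 2 of the 12 fits, those without replicate 2 of siNT vehicle or replicate 3 of siNT doxorubicin. MLK4 knock-down went with −2.14 (SE 0.20) in vehicle and −1.06 (SE 0.20) with doxorubicin. The latter ran from −1.16 to −0.97 in the 12 fits that left out 1 library. It was past the thresholds in 10 of them, not without siNT doxorubicin replicate 3 or siMLK4 doxorubicin replicate 1.

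TGFA encodes transforming growth factor alpha, and its gene (ENSG00000163235) lies at chr2:70447284-70554193 on the minus strand. It was, on average over the libraries, the ligand gene with the most reads and the steadiest of the 4 between libraries. In siNT cells it was at 4831, 4978 and 5524 normalized reads with vehicle and at 3366, 4045 and 4126 with doxorubicin. The siMLK4 libraries held 1776, 1785 and 1387 with vehicle and 2176, 2254 and 2209 with doxorubicin. None of the 4 groups overlapped another, and the order from high to low was siNT vehicle, siNT doxorubicin, siMLK4 doxorubicin and siMLK4 vehicle. The log2 fold change with doxorubicin was −0.41 (SE 0.12) in siNT and 0.42 (SE 0.12) in siMLK4 cells, a difference of 0.83 (SE 0.17). MLK4 knock-down went with −1.61 (SE 0.12) in vehicle and −0.78 (SE 0.12) with doxorubicin. The last value lay at the fold threshold, and it was not past it without siNT doxorubicin replicates 2 or 3 or with scaling to library totals (−0.69).

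EPGN and BTC, the ligand genes for epigen and betacellulin, had another pattern, although both lie in the cluster of AREG and EREG on chromosome 4. EPGN (ENSG00000182585, chr4:74308470-74316789, plus strand) ends 48.4 kb before EREG. BTC (ENSG00000174808, chr4:74744759-74794523, minus strand) lies 289.8 kb beyond AREG, and no other gene of the table lies in the 486.1 kb from EPGN to BTC. With vehicle EPGN was at 539.0, 451.6 and 617.4 normalized reads in siNT and at 517.0, 472.3 and 482.2 in siMLK4 libraries, which overlapped (log2 difference −0.11, SE 0.12, and 0.02 with scaling to library totals). With doxorubicin it had 419.9, 428.6 and 459.3 in siNT cells. The lowest EPGN libraries were those of siMLK4 cells with doxorubicin, at 257.8, 236.8 and 318.4, below all others. The log2 fold change with doxorubicin was −0.26 (SE 0.12) in siNT and −0.76 (SE 0.12) in siMLK4 cells, a difference of −0.50 (SE 0.18), opposite in sign to that of HBEGF, AREG, EREG and TGFA. The siMLK4 value lay at the fold threshold and was −0.60 with scaling to library totals. It was not past the threshold without siMLK4 vehicle replicate 1 or siMLK4 doxorubicin replicates 1 or 2. BTC was scarce, with 4.697, 10.38 and 3.368 normalized reads in siNT and 2.004, 5.978 and 5.406 in siMLK4 libraries given vehicle. With doxorubicin it had 31.38, 24.43 and 24.33 in siNT and 17.81, 26.68 and 18.15 in siMLK4 cells. Every doxorubicin library was above every vehicle library, and the siRNA groups overlapped in both treatments. The doxorubicin mean was 4.34 times the vehicle mean in siNT and 4.68 times in siMLK4 cells. At these counts the deposited scale gave log2 fold changes of only 0.72 (SE 0.13) and 0.66 (SE 0.13), against 2.14 and 2.20 in limma-voom on the recovered reads, so BTC was past the thresholds in both responses with voom, and with log2(normalized reads + 1), and in neither on the deposited scale with all libraries. Without siNT vehicle replicate 2 its siNT response was past them on the deposited scale too, where it ran from 0.64 to 0.83 when 1 library was left out, and likewise with scaling to library totals (0.79). BTC was the 1 member with fewer than 10 reads in some library, so 7 of the 8 passed that filter.

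The receptor gene EGFR (ENSG00000146648, chr7:55019017-55211628, plus strand) was at 4218, 5939 and 8399 normalized reads in siNT and at 8263, 6339 and 4546 in siMLK4 libraries given vehicle. With doxorubicin it had 1792, 2639 and 2636 in siNT and 2419, 2556 and 2504 in siMLK4 cells. The doxorubicin libraries lay below all vehicle libraries, and the siRNA groups overlapped in both treatments. The log2 fold change with doxorubicin was −1.34 (SE 0.24) in siNT cells and −1.30 (SE 0.24) in siMLK4 cells, and it stayed between −1.58 and −1.09 in siNT and between −1.52 and −1.09 in siMLK4 cells when 1 library was left out. The difference between the responses was 0.04 (SE 0.34), and that between siMLK4 and siNT was 0.06 (SE 0.24) in vehicle and 0.10 (SE 0.24) with doxorubicin. These standard errors leave room for differences of either sign. Within the siNT vehicle group replicate 1, with the lowest EGFR, had the highest HBEGF and AREG.

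ADAM17 (ENSG00000151694, chr2:9488486-9556732, minus strand) encodes the metalloprotease that sheds HBEGF, AREG, EREG, TGFA and EPGN, whereas betacellulin and EGF are mainly shed by ADAM10. In siNT cells it was at 1303, 1266 and 1432 normalized reads with vehicle and at 863.8, 1121 and 988.5 with doxorubicin. The siMLK4 libraries held 1488, 1402 and 1311 with vehicle and 1145, 1178 and 1196 with doxorubicin. Doxorubicin libraries lay below vehicle libraries in both siRNA groups, with log2 fold changes of −0.42 (SE 0.11) in siNT and −0.24 (SE 0.11) in siMLK4 cells. With doxorubicin the siMLK4 libraries lay above the siNT libraries, by 0.24 (SE 0.11), and in vehicle the groups overlapped (0.07, SE 0.11). Scaling to library totals, which moved the median of all genes from 0.005 to 0.181 in the siNT response, from 0.018 to 0.161 in the siMLK4 response and from 0.012 to 0.108 between siRNAs in vehicle, gave ADAM17 −0.18, −0.07 and 0.20 in these comparisons.

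**Figure D2:**
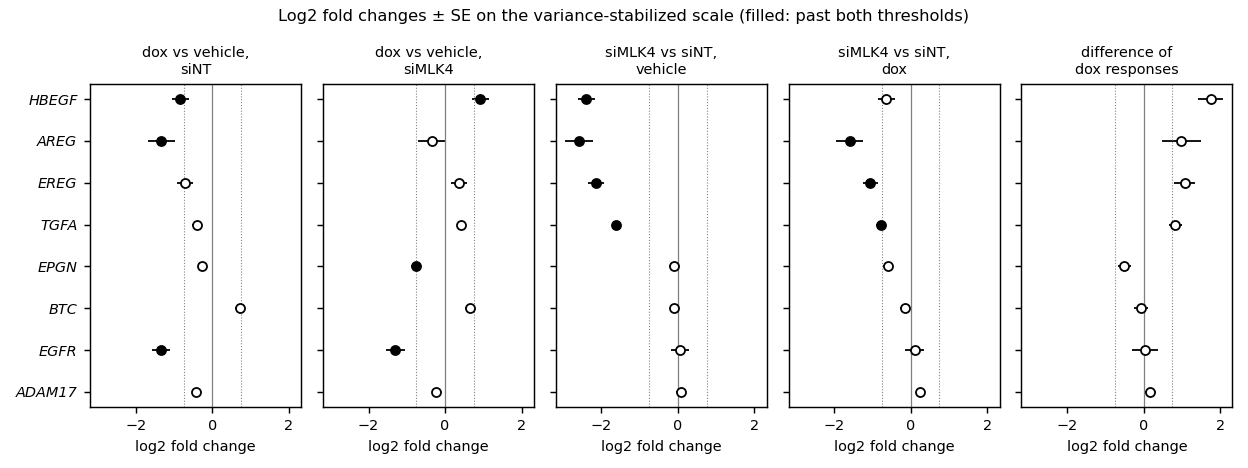
Log2 fold changes (points) with their SE (bars) on the variance-stabilized scale for the 8 genes, in 5 comparisons. Dotted lines mark the fold threshold of 0.75 in each direction, and filled points are past both thresholds. HBEGF, EREG and TGFA lie left of 0 with doxorubicin in siNT cells and right of 0 in siMLK4 cells, and EGFR lies at −1.34 and −1.30.

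Levels of different genes were compared per kilobase of exon. In siNT vehicle libraries AREG had the highest mean, at 2236 ± 1230 normalized reads per kb (SD, n = 3), followed by TGFA at 1039 ± 74.3, HBEGF at 871.3 ± 350.0 and EREG at 465.1 ± 158.0. The ranges of each neighbouring pair in this order, EREG and EGFR included (388.0 ± 132.0), overlapped. EPGN at 162.5 ± 25.1, ADAM17 at 83.55 ± 5.48 and BTC at 2.318 ± 1.40 followed without overlap. In siMLK4 vehicle libraries EGFR came first, at 400.4 ± 117.0, and overlapped AREG at 335.6 ± 188.0, and EREG stood at 94.43 ± 8.16, overlapping ADAM17. With doxorubicin TGFA came first, at 782.2 ± 84.9 in siNT cells, where it overlapped AREG at 778.4 ± 61.0, and at 450.1 ± 7.96 in siMLK4 cells, where HBEGF came next at 286.0 ± 14.0 without overlap. BTC was the lowest in each group. These ranks depend on the gene length used, and with the longest transcript in place of all exons 19 of the 32 positions stayed the same.

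The summed level of the 6 ligands was 6360, 3008 and 4961 normalized reads per kb in siNT and 953.5, 1005 and 1220 in siMLK4 cells given vehicle. With doxorubicin it was 2378, 2408 and 2506 in siNT and 1183, 1124 and 1267 in siMLK4 cells. All siMLK4 libraries were below all siNT libraries, and the siMLK4 groups overlapped each other. In the order siNT vehicle, siNT doxorubicin, siMLK4 vehicle and siMLK4 doxorubicin, AREG made up 44.5% ± 10.2, 32.0% ± 2.32, 30.5% ± 12.8 and 20.1% ± 4.18 of this sum (SD, n = 3 each). In the same order HBEGF made up 18.0% ± 1.03, 18.9% ± 3.09, 13.7% ± 2.23 and 24.1% ± 2.47, and its siNT and siMLK4 libraries overlapped with doxorubicin. EPGN made up 3.63% ± 0.999, 5.43% ± 0.107, 14.2% ± 2.23 and 6.87% ± 0.657. A sum of transcripts is not an amount of ligand protein, which was not measured in these libraries.

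**Figure D3:**
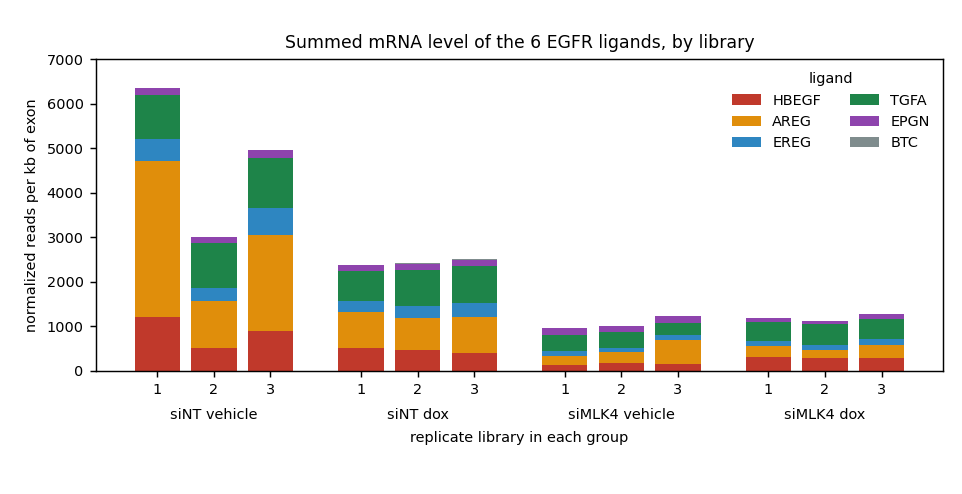
Summed normalized reads per kb of exon of the 6 ligand genes in each library, stacked by ligand, with the 3 replicates of each group side by side. The siNT vehicle bars reach 6360, 3008 and 4961, and all 6 siMLK4 bars stay at or below 1267.

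The protein-coding genes whose pattern over the 12 libraries lay nearest to a member were ranked, for the 7 members with a mean over 50 normalized reads and so without BTC, by the root mean square difference on the deposited scale, each gene centred on its own mean. All libraries enter both genes, so this is a description with no test. Nearest to HBEGF were the ETS factor gene ETV5 (0.302), EREG (0.333) and the ERK phosphatase gene DUSP6 (0.352), against a root mean square spread of HBEGF around its own mean of 0.916. PTGS2, which encodes cyclooxygenase-2, was among the nearest 3 of both AREG (0.476) and EREG (0.21), where the nearest were STC2 (0.397) and IL1A (0.209), and it had means of 3100, 1350, 526 and 560 normalized reads in siNT vehicle, siNT doxorubicin, siMLK4 vehicle and siMLK4 doxorubicin libraries. Nearest to TGFA was DCBLD2 (0.165) and nearest to EPGN was WARS2 (0.102). EGFR was followed most closely by FYCO1 (0.099 against a spread of 0.723), with means of 699, 230, 756 and 269 in the same order, and then by the receptor phosphatase gene PTPRF and by MCTP2 (both 0.131). ADAM17, whose own spread was 0.207, was followed by KIF15 (0.067).

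The other genes of the pathway were taken in 6 lists, of which 56 of 58 genes were in the table. The lists were drawn up with earlier results of these libraries known and are described by counts beside the shares of all genes given above. For the same reason the p-values printed for genes of these lists are not independent evidence. Upon MLK4 knock-down in vehicle 15 of the 56 fell and 1 rose, and 11 of the 15 were among 16 genes induced by ERK, with a median log2 fold change of −1.41 against 0.012 over all genes. DUSP6 fell the most (−2.66, SE 0.12, limma adjusted p = 4.2e-08), to 12.9% of the siNT mean. ETV5 fell to 18.5% (limma adjusted p = 2.3e-06) and the AP-1 gene FOSL1 to 21.8% (limma adjusted p = 8.4e-07). With doxorubicin 11 of the 56 fell upon knock-down, 7 of them ERK-induced genes with a list median of −0.73, FOSL1 the most (−1.45, SE 0.16, limma adjusted p = 2.7e-05), and the feedback inhibitor gene SPRY4 fell to 40.2% (limma adjusted p = 5.3e-05). In response to doxorubicin 3 of the 56 rose and 9 fell in siNT cells, and 8 rose and 9 fell in siMLK4 cells. Among ERK-induced genes 1 rose and 2 fell in siNT cells, while 6 rose and 1 fell in siMLK4 cells. FOS rose in both (1.84 and 2.09, SE 0.13 each, limma adjusted p = 9.9e-08 and 4.9e-08). FOS averaged 41.1 and 7.882 normalized reads in the siNT and siMLK4 vehicle libraries and 258.3 and 147.1 with doxorubicin, and at such counts the deposited scale compresses, with 2.65 and 4.15 in limma-voom. The difference between its responses was 0.25 (SE 0.18, limma adjusted p = 0.59) on the deposited scale and 1.5 (SE 0.39, adjusted p = 0.092) in limma-voom. PHLDA1 fell in both (−1.18 and −1.51, SE 0.17 each, limma adjusted p = 3.9e-05 and 4.6e-06), and EGR1 rose in siMLK4 cells (1.67, SE 0.12, limma adjusted p = 1.9e-07). In siNT cells EGR1 was also higher with doxorubicin without overlap (0.56, SE 0.12, limma adjusted p = 0.0014), short of the fold threshold. The doxorubicin responses differed between siRNAs for DUSP6 (1.53, SE 0.17, limma adjusted p = 0.0016), EGR1 (1.10, SE 0.17, limma adjusted p = 0.0074) and ETV5 (1.61, SE 0.25, limma adjusted p = 0.0074), the last with an adjusted p of 0.015 in limma with the replicate block and 0.011 in limma-voom, neither past the thresholds. EGR1 and ETV5 were past the thresholds in 1 of 12 fits that left out 1 library, the one without siNT vehicle replicate 2, and DUSP6 in 11, not without siMLK4 doxorubicin replicate 1. Over these fits the difference ran from 1.01 to 1.23 for EGR1, from 1.47 to 1.87 for ETV5 and from 1.42 to 1.65 for DUSP6.

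At the level of the receptors, neither ERBB2 nor ERBB3 was past the thresholds, with log2 differences upon knock-down in vehicle of 0.37 (SE 0.10) and 0.22 (SE 0.11). Among the other ERBB ligands EGF, itself a ligand of EGFR, had means of 465.8 normalized reads in siNT and 780.9 in siMLK4 vehicle libraries, which did not overlap (0.67, SE 0.14, short of the fold threshold). NRG1, a ligand of ERBB3 and ERBB4, fell upon knock-down in vehicle (−1.09, SE 0.13, limma adjusted p = 4.5e-05) and with doxorubicin (−0.97, SE 0.13, limma adjusted p = 0.00014). NRG4, a ligand of ERBB4, fell with doxorubicin to 30.8% in siNT and 29.9% in siMLK4 cells (limma adjusted p = 1.4e-05 and 3.1e-06) and rose upon knock-down in vehicle (0.77, SE 0.15, limma adjusted p = 0.0017). That rise was not past the thresholds without replicate 1 of either vehicle group. NRG2 had at most 21 reads in a library. Of 12 sheddases and their partners, the inhibitor gene TIMP3 fell in all 4 comparisons, to 35.5% and 29.2% with doxorubicin in siNT and siMLK4 cells and to 42.7% and 35.1% upon knock-down in vehicle and with doxorubicin (limma adjusted p at most 0.00011). The protease gene ADAM12 rose with doxorubicin in both (1.46 and 1.16, SE 0.16 each, limma adjusted p = 3.8e-06 and 2.8e-05), and in doxorubicin it was lower in siMLK4 than in siNT cells (−0.80, SE 0.16, limma adjusted p = 0.0022), a call lost without siNT doxorubicin replicates 2 or 3 or siMLK4 doxorubicin replicate 1. RHBDF2, which encodes a partner of ADAM17, fell upon knock-down in vehicle (−0.78, SE 0.14, limma adjusted p = 0.0013), not without siNT vehicle replicates 2 or 3, and the rhomboid protease gene RHBDL2 fell with doxorubicin in siMLK4 cells (−1.17, SE 0.15, limma adjusted p = 2.3e-05). RHBDL2 was also lower with doxorubicin in siNT cells without overlap (−0.69, SE 0.15, limma adjusted p = 0.0017), short of the fold threshold. Of 14 adaptors and kinases 4 fell with doxorubicin in both siRNA groups, among them SHC1 to 39.8% and 36.9%, ARAF to 40.8% and 43.2% and HRAS to 40.0% and 43.9% (limma adjusted p at most 0.00033), and NRAS fell by 0.92 and 0.96 on the log2 scale upon knock-down in vehicle and with doxorubicin (SE 0.11 each, limma adjusted p = 4.3e-05 and 3.9e-05). Of 8 receptor-level inhibitors LRIG1 rose with doxorubicin in both (0.84 and 1.19, SE 0.19 each, limma adjusted p = 0.0017 and 0.00011), CBLB fell in siMLK4 cells (−0.94, SE 0.17, limma adjusted p = 0.00038), and ERRFI1 fell in siNT cells (−0.85, SE 0.23, limma adjusted p = 0.0064) with groups that overlapped, a call lost without siNT vehicle replicates 1 or 3 or siNT doxorubicin replicates 1 or 2. CBLB was also lower with doxorubicin in siNT cells without overlap (−0.65, SE 0.17, limma adjusted p = 0.0058), short of the fold threshold.

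**Figure D4:**
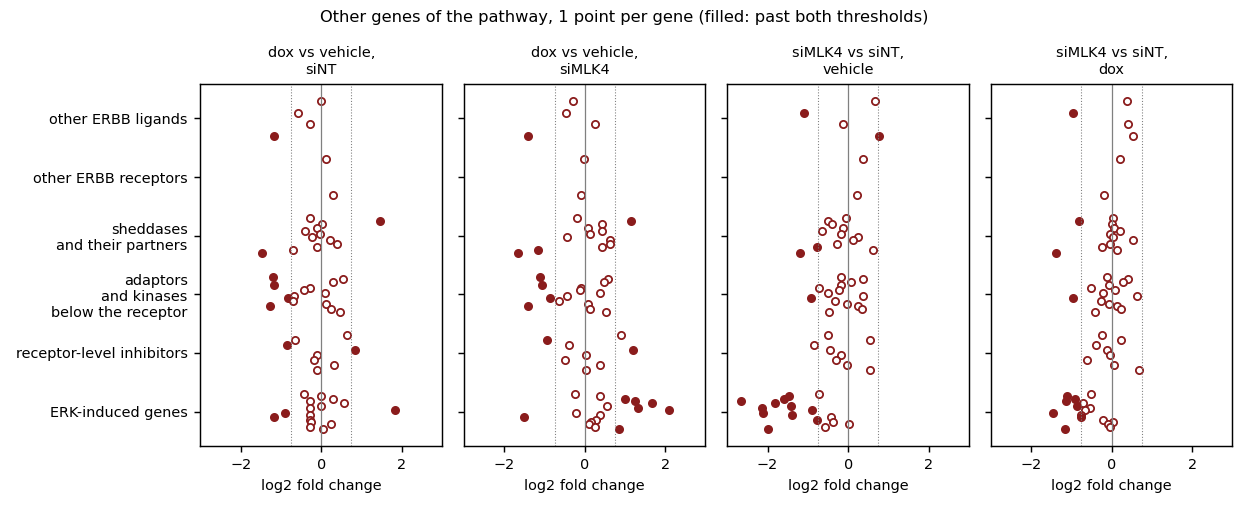
Log2 fold changes on the variance-stabilized scale of the 56 other pathway genes, 1 point per gene, by list (vertical axis) in 4 comparisons. Filled points are past both thresholds and dotted lines mark 0.75 in each direction. Of the 16 ERK-induced genes 11 are filled on the left upon MLK4 knock-down in vehicle and 7 with doxorubicin.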

How the data were processed

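Poly(A) RNA libraries of 12 HCC1806 cultures were sequenced in paired-end mode. Per the labels, the authors' processing notes name Trimmomatic 0.39, HISAT2, HTSeq 0.6.0, DESeq2 1.26.0 and build hg19, whereas the supplementary methods name GRCh38. The deposited values are log2 values that the authors made with DESeq2's variance-stabilizing transformation. Its closed form was inverted, and 100% of the values came out as whole reads (tolerance 0.05) once each library's size factor was taken out. Coordinates are those of GENCODE 44 (GRCh38), matched by Ensembl identifier for 16957 of 17013 genes.

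Differences were tested with limma 3.58.1 in R 4.3.3 (lmFit, eBayes with a variance trend) on the deposited values, with 4 group means over 12 libraries and Benjamini-Hochberg adjustment over 17013 genes, with thresholds of 0.01 for the adjusted p and 0.75 for the log2 fold change in either direction. The fit was tested on simulated data, but no outcome is given here and nothing is read from that test. The 8 members, the pathway lists and the tests were chosen with earlier results of these data known. Named besides the members were MAP3K21, all other ERBB ligands and receptors in the table, and up to 3 genes with the largest change past the thresholds of each list and comparison. NRG3 and ERBB4 were not analysed here. Alternatives were other scalings, log2(normalized reads + 1), limma-voom, a filter of 10 reads in every library, fitting only the groups compared, no variance trend, a relaxed threshold, a replicate block and leaving out each library.

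Labels give each group replicates 1 to 3. Deviations of same-numbered libraries correlated at 0.46, 0.11 and 0.20 between siNT vehicle and doxorubicin and at 0.19, 0.52 and 0.56 between the doxorubicin groups, which pairs those by the rule of all pairs over 0.1. They did not between the siMLK4 groups (−0.08, 0.18, 0.34) or the vehicle groups (−0.72, 0.32, −0.52). Figures were drawn with matplotlib 3.10.9.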

Additional observations from a re-analysis of the deposited data

Results flagged for a closer look

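For 3 ligands every doxorubicin library lay below the vehicle mean in siNT cells and above it in siMLK4 cells. In siNT cells the vehicle and doxorubicin libraries of HBEGF and EREG overlapped. EREG and TGFA were past the thresholds in neither response. The difference between the log2 fold changes was 1.75 (SE 0.32) for HBEGF, 1.07 (SE 0.28) for EREG and 0.83 (SE 0.17) for TGFA. The members were chosen with these differences known, so no p-value is given for them. None of the 3 was past the thresholds in limma over all 12 libraries or in limma-voom, and HBEGF and EREG were past them in limma without siNT vehicle replicate 2. Among the other pathway genes the limma test of the difference was past the thresholds for ETV5 at 1.61 (adjusted p = 0.0074), for DUSP6 at 1.53 (adjusted p = 0.0016) and for EGR1 at 1.10 (adjusted p = 0.0074). ETV5 and EGR1 were past them in 1 of 12 fits that left out 1 library. Over these fits their differences ran from 1.47 to 1.87 and from 1.01 to 1.23. ETV5 was not past the thresholds in limma with the replicate block (adjusted p = 0.015) or in limma-voom (adjusted p = 0.011). In all 6 genes the difference goes with lower vehicle levels in siMLK4 cells, such as a mean of 187.8 normalized reads of DUSP6 against 1459 in siNT cells, and with means in siMLK4 doxorubicin libraries that stayed below those of siNT doxorubicin libraries, at 511.2 against 1176 for DUSP6, 589.3 against 869.9 for ETV5 and 405.0 against 690.4 for EGR1.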

How the results depend on the processing

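With an adjusted p under 0.05 and no fold threshold, 7 members were past it in the siNT response to doxorubicin, 5 in the siMLK4 response, 5 for siMLK4 against siNT with doxorubicin and 2 for the difference of responses, and 28, 34, 31 and 23 pathway genes in the siNT response, the siMLK4 response and upon knock-down in vehicle and with doxorubicin. Of all genes 57.3%, 57.9%, 25.8% and 24.8% were past it in these 4 comparisons and 1.2% for the difference of responses. Leaving out 1 library gave 1 to 5 members in the siNT response, 1 to 3 in the siMLK4 response, 0 to 3 upon knock-down with doxorubicin and 0 to 2 for the difference of responses, and 0 to 3 pathway genes for that difference. In the same fits 21.2% to 24.6%, 20.6% to 26.0%, 4.47% to 6.59% and at most 0.217% of all genes were past the thresholds, with 0 genes for the difference of responses without siMLK4 doxorubicin replicate 1. Without siNT vehicle replicate 2, HBEGF and EREG were past the thresholds for the difference of responses. The replicate block changed no member's call and gave 3, 3, 4, 3 and 0 members past the thresholds. It gave 17 pathway genes instead of 16 upon knock-down in vehicle, and 2 instead of 3 for the difference of responses, with ETV5 lost. With the longest transcript as gene length 19 of 32 rank positions stayed. With scaling to library totals HBEGF (−0.59) and AREG (−1.09) were not past the thresholds in the siNT response, BTC (0.79) was past them higher, and TGFA had −0.17 in the siNT and 0.60 in the siMLK4 response. In the siNT response HBEGF was also not past them when only the groups compared were fitted. No result turned its direction past a threshold. A limit was set at 3 reads, which was 2.502 to 3.523 normalized reads. Near it were BTC in vehicle libraries and NRG2, whose group means ran from 3.912 to 11.93. In doxorubicin libraries BTC had 17.81 to 31.38 normalized reads.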
